A study of Mus musculus with 7 samples.

Results

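Every secreted or membrane protein that carries N-linked sugars receives them as 1 preassembled block, built on the lipid carrier dolichol in the membrane of the endoplasmic reticulum (ER). The 10 genes described here, Dolk, Dpagt1, Alg1, Alg2, Alg3, Alg9, Alg12, Alg5, Alg6 and Alg8, encode enzymes that build that block. They were picked by name as enzymes of this pathway from the 19938 genes with a probe set paired with exactly 1 gene symbol, and each of the 10 was measured by 1 probe set. No filter on low values was used, so all 10 were tested.

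The tissue was white fat from the epididymal pad, which lies against the male reproductive tract, of male C57Bl/6J mice of 17 weeks on a chow diet. There were 4 wild type samples and 3 samples from aP2-XBP1 transgenic mice. XBP1 is a factor that the ER stress sensor Ire1 activates and that turns on genes for folding, modifying and moving secreted proteins, and aP2 is another name of Fabp4, whose promoter is active in adipocytes and also in other cells such as macrophages. Each sample was read on 1 Affymetrix array in 1 colour, and the deposited values are log2 expression, so a difference of 1 is a doubling. The labels number replicates without saying that each came from its own animal, so the spread between samples may be partly technical. The single comparison, transgenic against wild type, bears on the transcripts of fat with added XBP1, here on those of sugar precursor assembly.

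Assembly starts on the cytosolic face of the ER. Dolk makes dolichol phosphate, Dpagt1 adds the first sugar, an N-acetylglucosamine phosphate, and is the enzyme that tunicamycin blocks. Alg13 and Alg14 add the next N-acetylglucosamine, Alg1 adds the first mannose, Alg2 the following ones, and Alg11 completes the cytosolic part. After the block has been turned to the lumen, Alg3, Alg9 and Alg12 add further mannoses, Alg6, Alg8 and Alg10b add glucoses, and the oligosaccharyltransferase moves the finished block to a protein. Alg5 makes the dolichol-phosphate glucose that the glucose steps use. Fat cells secrete glycoproteins in quantity, and the unfolded protein response is known to raise many genes of the secretory pathway.

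RefSeq promoter windows (GRCm38.p6) were matched by symbol for 8 of the 10 enzymes, Dpagt1 and Alg2 being the others, and searched on both strands over the 250 bases before the start. The letters were CCACG and ACGTG, which occur in known sites of ER stress factors, CCAAT, the box bound by NF-Y, and the ER stress response element (ERSE), which is CCAAT, any 9 bases, then CCACG, and so overlaps 1 match of each of those. CCACG was found in 4 of the 8 windows, against 28.3% of all 32851 windows of the table, CCAAT in 2, against 33.8%, and ACGTG in 2, against 16.6%. The ERSE was found in 1 of the 8, that of Alg12, against 0.113% (37 of 32851 windows). The Alg12 window is shown because it holds that element. The stretch of Dolk shows CCACG and ACGTG overlapping, and that of Alg6 shows the same letters. Groups were not apart for any of these genes. The 95% intervals of the difference were -0.03 to 0.57 for Alg12, -0.01 to 0.70 for Dolk and -0.25 to 0.17 for Alg6. Capitals mark CCAAT and CCACG in Alg12 (chr15:88819319-88819568, minus strand, bases -250 to -1 from the start), and CCACG and ACGTG on either strand in Dolk (chr2:30286355-30286414, minus strand, bases -60 to -1) and Alg6 (chr4:99715510-99715569, plus strand, bases -120 to -61).
Alg12: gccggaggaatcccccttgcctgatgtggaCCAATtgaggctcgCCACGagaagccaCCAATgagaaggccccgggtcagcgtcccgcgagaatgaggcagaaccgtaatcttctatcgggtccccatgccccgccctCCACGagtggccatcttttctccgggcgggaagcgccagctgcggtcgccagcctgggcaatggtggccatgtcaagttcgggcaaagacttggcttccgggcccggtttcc
Dolk: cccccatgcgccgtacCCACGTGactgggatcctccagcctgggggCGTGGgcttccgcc
Alg6: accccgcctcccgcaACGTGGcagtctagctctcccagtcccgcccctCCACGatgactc
In Alg12 the ERSE spans bases -220 to -202. Alg3, with a lone CCAAT, and Alg5, with CCACG on each strand, are described by their values only, and no letters of the search were found for Alg1, Alg9 and Alg8. A match is a description of letters and not of binding.

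Wild type replicates 1, 3 and 4 stood apart from the other samples. The mean of 3 epididymal transcripts (Serpina1f, Spink8, Defb42) was 9.31, 9.38 and 10.05 there, against 2.57 for wild type replicate 2. The 3 transgenic samples had means of 2.65 to 3.10. The other 6 of 9 epididymal markers stayed between 1.97 and 4.69 in every sample, and the list's summed level (log2 of the summed linear values) was 5.81 to 12.05 for wild type, 5.93 to 6.60 for transgenic samples. All 8 smooth muscle markers had a lower transgenic mean. Their summed levels were 12.98, 12.97 and 13.42 in wild type replicates 1, 3 and 4. Wild type replicate 2 had 11.27 and the transgenic samples 10.62 to 11.20. All 8 adipocyte markers had a higher transgenic mean, with summed levels of 13.78 to 14.46 and 14.47 to 14.55, and Adipoq read 11.09 to 11.74 in wild type and 11.69 to 11.83 in transgenic fat. Macrophage markers had a lower mean in 4 of 5 (10.23 to 11.75 and 10.77 to 11.06), endothelial markers a higher one in 5 of 5 and mesothelial markers in 4 of 5, and those of plasma and B cells and of T cells a lower one in 3 of 4 each. The part of these cell types in the values that follow was not tested. Differences against wild type replicate 2 alone, or with an adipocyte covariate, are given below for some of the enzymes. Fewer cells of a type and less RNA per cell cannot be told apart in such samples. Xbp1 read 8.90 to 9.19 in wild type and 9.66 to 9.99 in transgenic fat, and its probe set does not separate the transgene from the endogenous gene.

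Dpagt1, the first committed enzyme of the pathway, had the largest difference of the 10. It read 6.31, 6.36, 6.38 and 6.18 in wild type replicates 1 to 4 and 6.71, 7.12 and 6.66 in transgenic replicates 1 to 3. The groups did not overlap, every transgenic sample lying above every wild type one, and transgenic replicate 2 was the highest sample. The wild type mean was 6.31 ± 0.09 (SD, n = 4) and the transgenic mean 6.83 ± 0.25 (SD, n = 3), which is 1.44-fold higher on the linear scale (log2 difference 0.52, SE 0.12, 95% interval 0.23 to 0.82). In limma's fit over 21789 probe sets this ranked 103 by p, with an adjusted p = 0.622, and did not pass 0.05. The difference was 0.47 against wild type replicate 2 alone, the wild type sample without the epididymal transcripts, and 0.38 without transgenic replicate 2.

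Alg2, which adds mannoses on the cytosolic face, was the other enzyme whose groups did not overlap. It read 5.75, 6.27, 6.35 and 6.35 in wild type and 6.44, 6.88 and 6.45 in transgenic fat. Wild type replicate 1 lay far below the other wild type samples, and transgenic replicate 2 far above all others. The log2 difference was 0.41 (SE 0.19, 95% interval -0.04 to 0.86, limma adjusted p = 0.636). It was 0.27 without wild type replicate 1 and 0.26 without transgenic replicate 2.

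Dolk, the kinase that supplies dolichol phosphate, read 6.04, 6.57, 6.35 and 6.55 in wild type and 6.70, 6.57 and 6.89 in transgenic fat. Transgenic replicate 2 and wild type replicate 2 shared the same value, so the groups met, and wild type replicate 1 was again the lowest sample. The log2 difference was 0.34 (SE 0.15, 95% interval -0.01 to 0.70, limma adjusted p = 0.631), and it was 0.15 against wild type replicate 2 alone.

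Alg1, the enzyme between Dpagt1 and Alg2 that adds the first mannose, was nearly level across the samples. It read 6.56, 6.56, 6.74 and 6.51 in wild type and 6.54, 6.56 and 6.56 in transgenic fat. Only wild type replicate 3 stood out, on the high side. The difference was -0.04 (SE 0.06, 95% interval -0.19 to 0.11, limma adjusted p = 0.835). Whether Alg1 differs from Dpagt1 or Alg2 in this was not tested. The difference of Alg1 was 0.0024 once array medians were made equal and 0.011 without wild type replicate 3, so its sign is not settled.

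**Figure D1:**
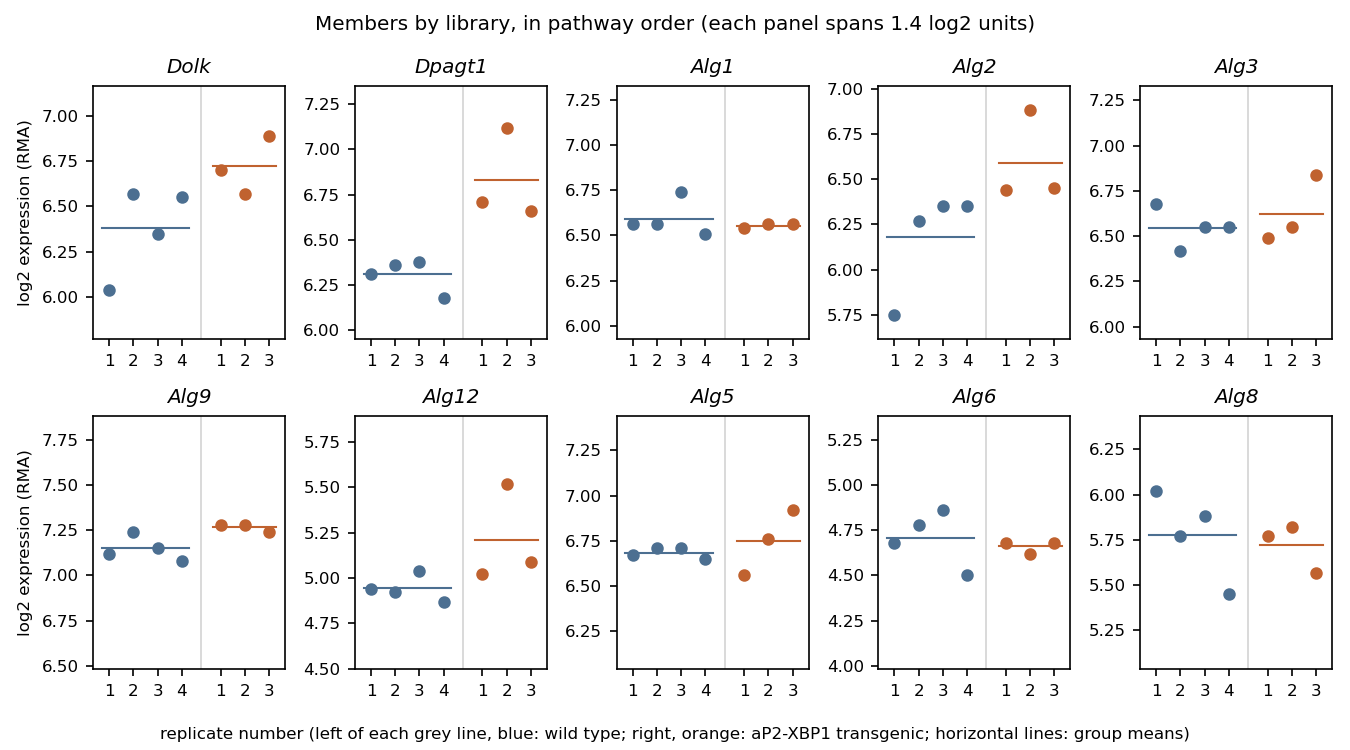
Log2 expression of the 10 enzymes (y axis, RMA values) by replicate number (x axis), with wild type in blue and aP2-XBP1 transgenic in orange. Points are single samples and lines group means. Every panel has the same height in log2 units but is centred on its own gene, so levels cannot be compared by position across panels. The groups are apart for Dpagt1 and Alg2, and the 3 transgenic points of Alg1 lie within 6.54 to 6.56.

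The lumenal mannosyltransferases had smaller differences. Alg12 read 4.94, 4.92, 5.04 and 4.87 in wild type and 5.02, 5.52 and 5.09 in transgenic fat. Its transgenic replicate 2 was far above every other sample, while transgenic replicate 1 lay below wild type replicate 3. The difference was 0.27 (SE 0.12, 95% interval -0.03 to 0.57, limma adjusted p = 0.638), and without transgenic replicate 2 it was 0.11.

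Alg9, which acts before and after Alg12 in the lumen, read 7.12, 7.24, 7.15 and 7.08 in wild type and 7.28, 7.28 and 7.24 in transgenic fat. The groups met at a value shared by wild type replicate 2 and transgenic replicate 3, and the spread within each was narrow. The difference of 0.12 (SE 0.05, 95% interval 0.0047 to 0.23, limma adjusted p = 0.622) was the other one with an unadjusted p under 0.05, and it was 0.03 against wild type replicate 2 alone. Alg3, the first of the lumenal mannosyltransferases, read 6.68, 6.42, 6.55 and 6.55 in wild type and 6.49, 6.55 and 6.84 in transgenic fat, a difference of 0.07 (95% interval -0.17 to 0.32). Only transgenic replicate 3 was above the wild type range, and without it the difference was -0.032. It was 0.20 against wild type replicate 2 alone, the lowest sample of Alg3.

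The 3 enzymes of the glucose branch had overlapping groups and intervals that hold 0. Alg5 read 6.67, 6.71, 6.71 and 6.65 in wild type and 6.56, 6.76 and 6.92 in transgenic fat, so the transgenic samples lay on both sides of the wild type range. Its difference was 0.06 (95% interval -0.14 to 0.27) and -0.024 without transgenic replicate 3. Alg6, the enzyme of the first glucose, read 4.68, 4.78, 4.86 and 4.50 in wild type and 4.68, 4.62 and 4.68 in transgenic fat. Its transgenic samples lay inside the wild type range, with a difference of -0.04 (95% interval -0.25 to 0.17), 0.0091 without wild type replicate 3 and -0.11 against wild type replicate 2 alone. Alg8, the enzyme of the next glucose, read 6.02, 5.77, 5.88 and 5.45 in wild type and 5.77, 5.82 and 5.57 in transgenic fat. These groups overlapped throughout, and the difference of -0.06 (95% interval -0.40 to 0.29) changed sign without wild type replicate 1 (0.025) or transgenic replicate 3 (0.018). Upper bounds of 0.17 to 0.29 for these 3 genes leave room for a small rise that 7 samples do not resolve.

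Of the 10 enzymes 0 passed limma's adjusted p of 0.05, as did 0 of all probe sets in either direction (0%), the smallest adjusted p being 0.622. At an unadjusted p under 0.05 there were 2 of 10 higher, Dpagt1 and Alg9, where 4.82% of all probe sets were higher, and 0 lower, where 3.12% were. Groups did not overlap for 2 of 10 higher, against 3.38% of all probe sets, and for 0 lower, against 2.44%. A higher transgenic mean was found for 7 of 10, with a median difference of 0.10, where 53.6% of all probe sets had one and the median was 0.01. Among the 10, Dolk, Dpagt1, Alg1 and Alg2 had a median of 0.38, the 3 lumenal mannosyltransferases 0.12 and Alg5, Alg6 and Alg8 -0.04. That order was seen in these values and was not tested. With the mean of the 8 adipocyte markers as a covariate, Dolk differed by 0.03, Dpagt1 by 0.56, Alg1 by -0.02 and Alg2 by 0.19. In that fit Alg3 differed by 0.18, Alg9 by 0.07, Alg12 by 0.33, Alg5 by 0.03, Alg6 by -0.06 and Alg8 by 0.14. The lumenal mannosyltransferases, not the first group, had the highest median there. The order leaves out measured steps, namely Alg13 (-0.11), Alg14 (0.26) and Alg11 (-0.01) of the cytosolic part and Alg10b (0.16) of the glucose steps. The median of the 10 was 0.09 against wild type replicate 2 alone, 0.11 without transgenic replicate 2 and 0.15 without transgenic replicate 1. With the array medians made equal, which adds the same amount to the difference of every probe set, it was 0.14, with 8 of 10 higher.

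**Figure D2:**
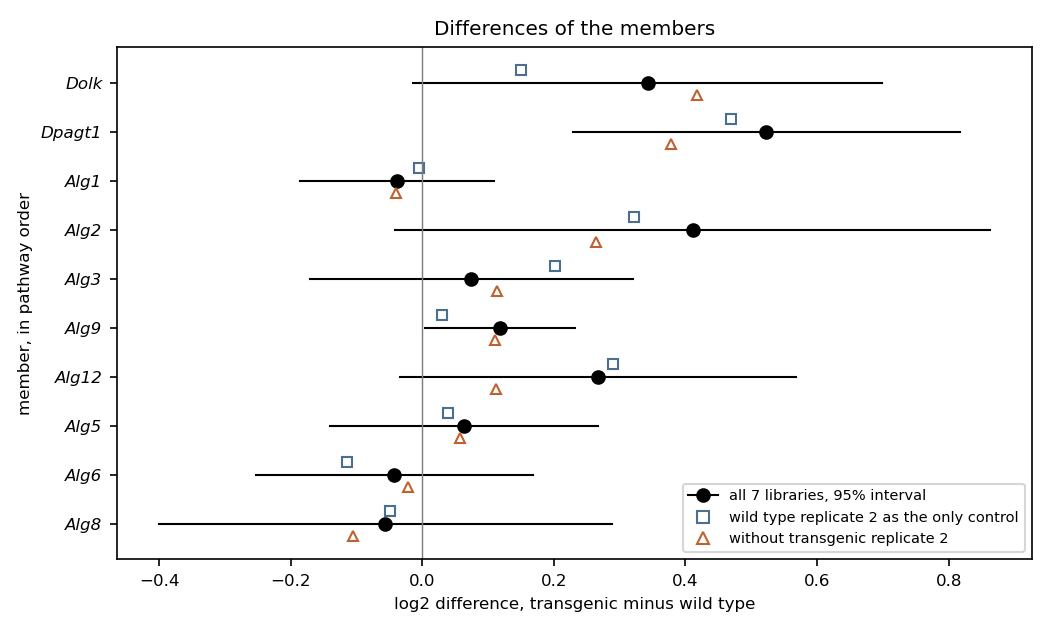
Log2 difference, transgenic minus wild type (x axis), for the 10 enzymes in pathway order (y axis); black points and lines give limma's value and 95% interval over 7 samples, squares the value against wild type replicate 2 alone and triangles the value without transgenic replicate 2. Dpagt1 stays between 0.38 and 0.52 in all 3, Dolk falls to 0.15 against the lone control, and Alg12 to 0.11 without transgenic replicate 2.

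Another 18 genes of precursor assembly and supply, listed by their place in the pathway, were read from probe sets with exactly 1 symbol. A higher transgenic mean was found for 12 of 18 and a lower one for 6, with a median difference of 0.13, against 53.6% of all probe sets with a higher mean and a median of 0.01. Of the 18, 0 passed limma's adjusted p, and at an unadjusted p under 0.05 there were 4 higher, against 4.82% of all probe sets, and 0 lower, against 3.12%. Groups did not overlap for 4 of them, all higher, against 3.38% of all probe sets. Mpdu1, which is needed for the use of dolichol-linked mannose and glucose, read 7.19, 7.19, 7.03 and 7.14 in wild type and 7.27, 7.44 and 7.78 in transgenic fat (difference 0.35). Pmm1, a phosphomannomutase, read 6.28, 6.48, 6.46 and 6.56 in wild type and 6.67, 6.60 and 6.99 in transgenic fat (0.31). Both were highest in transgenic replicate 3, not in the sample where Dpagt1 peaked. Dolpp1, the phosphatase that recycles dolichol pyrophosphate, differed by 0.23 and Nus1, a subunit of the dolichol chain synthase, by 0.17.

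Gmppb, which makes GDP-mannose, had the largest difference of the 18, 0.41, with groups that overlapped. Of the steps that sit next to the 10 enzymes, Alg14 differed by 0.26 and Alg10b, which adds the last glucose, by 0.16. Alg13, the partner of Alg14, differed by -0.11, and Alg11 by -0.01. The values of Alg13 were low, at 3.64 to 4.00, where array medians were 3.99 to 4.04. For Alg11, 6 of 7 samples held the identical deposited value, and for Alg13 5 of 7. Such ties are common in these RMA values, with 3 or more samples sharing a value in 46.9% of the probe sets tested, and Alg1, Alg3 and Alg6 each had 3 such samples.

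**Figure D3:**
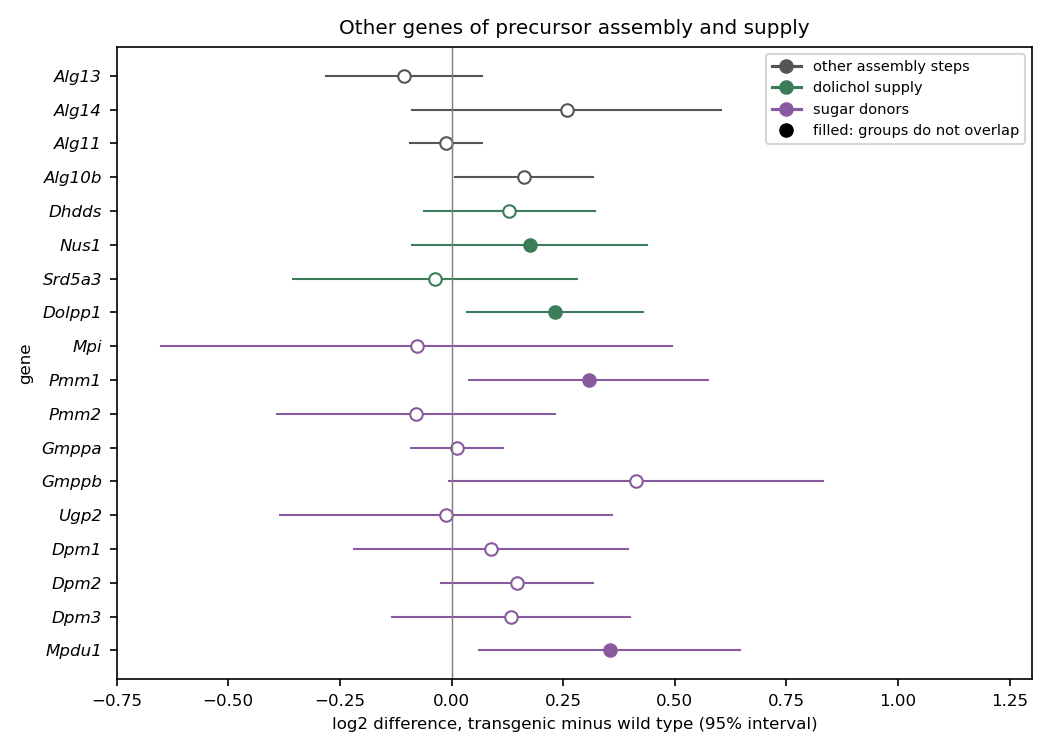
Log2 difference, transgenic minus wild type, with limma's 95% interval (x axis) for 18 other genes of the pathway (y axis), coloured by list; filled points mark groups that do not overlap. The 4 filled points, Nus1, Dolpp1, Pmm1 and Mpdu1, lie between 0.17 and 0.35.

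Adipocyte markers moved with some of these genes. The mean of the 8 markers was 10.63, 11.37, 10.93 and 11.07 in wild type replicates 1 to 4 and 11.39, 11.34 and 11.46 in transgenic replicates 1 to 3. Wild type replicate 1 was thus the lowest sample for the markers, as it was for Dolk and Alg2, and transgenic replicate 3 the highest, as it was for Dolk. With this mean as a covariate in the limma fit, an alternative chosen after the values were seen, the difference of Dolk was 0.03 in place of 0.34 (adjusted p = 0.953) and that of Alg2 0.19 in place of 0.41 (adjusted p = 0.858). Dpagt1 differed by 0.56 (adjusted p = 0.639) and Alg12 by 0.33 (adjusted p = 0.762) in the same fit. The marker mean of wild type replicate 2 lay within the transgenic range. In that 1 sample Dpagt1 read 6.36, against 6.66 to 7.12 in transgenic samples. Alg2 read 6.27 there, against 6.44 to 6.88, and Dolk 6.57, against 6.57 to 6.89. The markers differ with genotype themselves, so their part in these differences cannot be told apart from it.

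**Figure D4:**
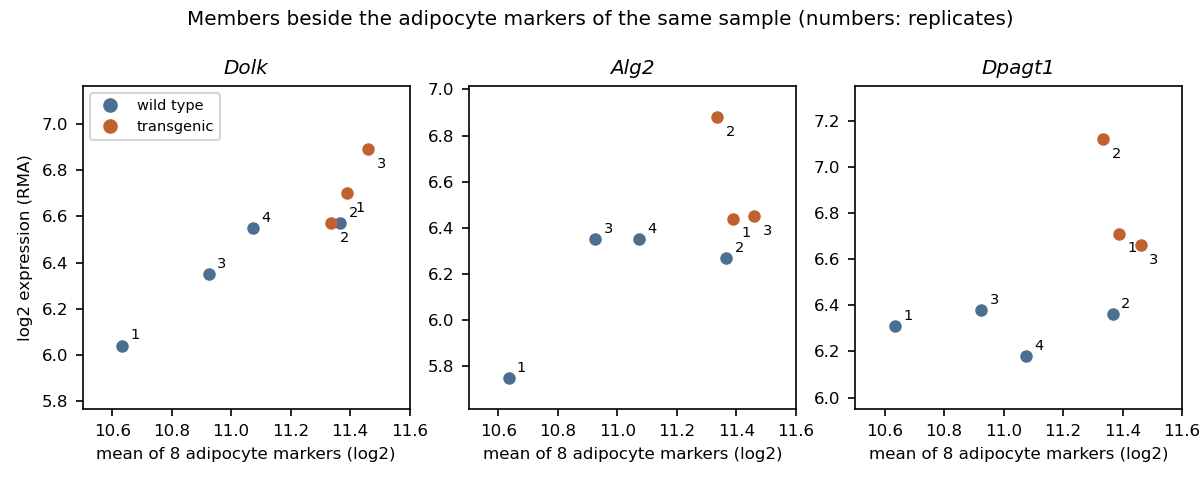
Log2 expression of Dolk, Alg2 and Dpagt1 (y axes) against the mean log2 value of 8 adipocyte markers in the same sample (x axis), with wild type in blue, transgenic in orange and replicate numbers beside the points. Dolk is lowest in wild type replicate 1 (6.04) and highest in transgenic replicate 3 (6.89), the ends of the marker axis. Dpagt1 is 6.18 to 6.38 over all 4 wild type samples.

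Genes were then ranked by how closely their values followed those of Dpagt1, as the root mean square distance over the 7 samples after each gene was centred on its own mean. The nearest of 19937 genes was Os9, a lectin of ER-associated degradation, at 0.054. It was followed by Ssr3, a subunit of the TRAP complex at the translocon (0.072), Magt1, a subunit of the oligosaccharyltransferase (0.073), Uso1, a tether of ER-to-Golgi vesicles (0.079), and Hspa5, the chaperone BiP (0.085). Each of these was highest in transgenic replicate 2, with differences from 0.39 (Magt1) to 0.65 (Hspa5). Dpagt1 peaked in that sample too, so a like peak and difference follow from how these genes were picked. Among the other 9 enzymes Alg12 was the nearest, in place 35 at 0.137, then Alg2 in place 457 and Alg9 in place 1236. Dolk was in place 6888 and the remaining enzymes in places 5282 to 11856. This is a description of 7 samples, with no test.

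**Figure D5:**
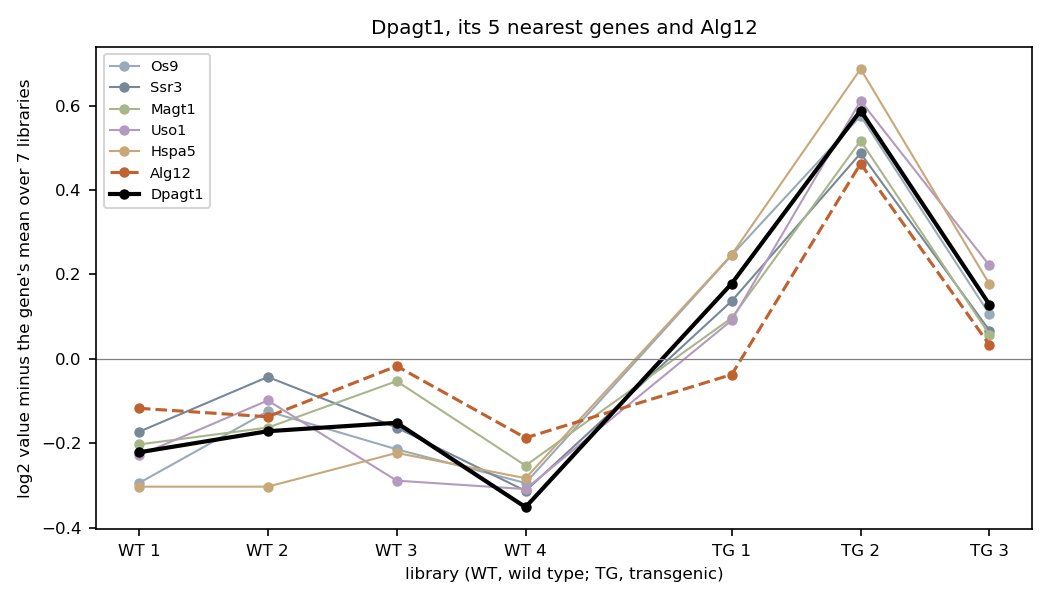
Log2 value minus the gene's mean over 7 samples (y axis) in each sample (x axis) for Dpagt1 (black), its 5 nearest genes and Alg12 (dashed); lines only join the points of a gene. All 7 genes peak in transgenic replicate 2, and the 5 nearest were picked for values like those of Dpagt1.

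Alg12 lies beside Creld2, an ER stress-responsive gene on the opposite strand, with 328 bases between their RefSeq starts. The ERSE shown above therefore also falls in the window of Creld2, from base -126. Creld2 was looked up after its values were known. It read 6.34, 6.26, 6.57 and 6.71 in wild type and 7.17, 7.89 and 6.87 in transgenic fat, with groups that did not overlap and the highest value in transgenic replicate 2, the sample in which Alg12 also peaked. The difference was 0.84 (SE 0.25, limma adjusted p = 0.622) for Creld2 and 0.27 for Alg12, and whether the pair differ was not tested.

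Genes that use or feed the precursor are given by counts for comparison, and no difference from the 10 enzymes was tested. The oligosaccharyltransferase had a higher transgenic mean for 8 of 12 genes, with a median difference of 0.08, 4 non-overlapping higher and 1 lower, where the shares of all probe sets were 53.6% with a higher mean, 3.38% non-overlapping higher and 2.44% lower. Synthesis of UDP-N-acetylglucosamine, the donor that Dpagt1 uses, had a higher mean for 5 of 5, with a median of 0.22 and 0 non-overlapping. All 5 were highest in transgenic replicate 2 and lowest in wild type replicate 1, which was also the lowest sample for all 8 adipocyte markers. The share of all probe sets with their highest or lowest value in a given sample was not computed. Of the 10 assembly enzymes 4 were highest in transgenic replicate 2 (Dpagt1, Alg2, Alg9 and Alg12), 3 in transgenic replicate 3 (Dolk, Alg3 and Alg5) and 3 in a wild type sample (Alg1, Alg6 and Alg8).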

How the data were processed

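RNA of 7 fat samples was read on Affymetrix arrays. The authors deposited log2 expression values made with RMA (background correction, quantile normalization and probe set summary), per the submitters' processing notes; its version is not given in the sources used here. RMA brings arrays to a common distribution, so a shift of all genes would not be seen. Array medians were 4.03 to 4.04 in wild type and 3.99 to 4.01 in transgenic samples, and 7 arrays set the precision. Per the labels' protocols, 100 ng of total RNA with an integrity number above 8.0 was labelled. Of 35556 probe sets, 21789 had exactly 1 symbol in the platform annotation, 1621 had several and 12146 none; 21698 matched RefSeq by Entrez identifier and 0 symbols changed. No pair of arrays was identical.

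Differences were fitted with limma 3.58.1 in R 4.3.3 (lmFit, eBayes, two-sided, genotype as the only term) over the 21789 probe sets with Benjamini-Hochberg adjustment, after a check on simulated data. Each gene was read by its probe set with the highest mean. The genes named are all 10 enzymes, other pathway genes whose groups do not overlap and the 5 genes nearest to Dpagt1; Creld2, Gmppb and the other assembly steps were named after their values were seen. The enzymes and lists were chosen with earlier results of these data known. Alternatives were a replicate block, renormalization, other filters and priors, array weights (statmod 1.5.0), covariates, lone controls and leaving out samples. Figures used Python 3.11.15 and matplotlib 3.10.9.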

Additional observations from a re-analysis of the deposited data

Results flagged for a closer look

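In the wild type group of 4, 1 sample lay far from the other 3 for 3 of the 28 pathway genes examined. Chance gives about 1 in 20 groups for values without ties, a rate that does not hold for the tied genes. Alg2 read 5.75 in wild type replicate 1, with a gap to the next sample of 0.864 of the group's range. Alg13 read 4.00 in wild type replicate 4 and Alg11 read 6.18 in wild type replicate 3, each with the other 3 wild type samples at 1 shared value, so that the gap equals the whole range by construction.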

How the results depend on the processing

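Leaving out each sample in turn gave from 0 to 7 probe sets called higher and from 0 to 84 called lower, all calls arising without wild type replicate 2; the cause was not tested. With the mean of Serpina1f, Spink8 and Defb42 as a covariate 3 were called lower. The count of enzymes with a higher transgenic mean ran from 6 to 9 and their median from 0.08 to 0.15 when samples were left out. Leaving out samples turned the sign of Alg1 (-0.065 to 0.011), Alg3 (-0.032 to 0.14), Alg5 (-0.024 to 0.16), Alg6 (-0.11 to 0.0091) and Alg8 (-0.17 to 0.025). Equal array medians gave 8 of 10 enzymes higher with a median of 0.14, and 15 of the 18 other pathway genes higher. This setting adds the same amount to the difference of every probe set, so these rises are not particular to the pathway. The share of all probe sets with a higher mean under it was not computed. Equal array medians also turned Alg1 (0.0024), and the adipocyte covariate turned Alg8 (0.14). Dolk, Dpagt1, Alg2, Alg9 and Alg12 stayed above 0 in the 14 alternatives that can move a difference, 13 of them distinct, with Dpagt1 from 0.38 to 0.61. The other 5 of 19 alter only the genes tested, the prior or the probe sets averaged and repeat the differences by construction. None of the 10 passed in any of the 19. Same-numbered samples had deviations from their group means correlated at -0.139, -0.095 and 0.058. With so few arrays per group these values cannot decide whether the numbers pair samples. With the replicate block 0 probe sets were called and Dpagt1 differed by 0.48, the differences being those without wild type replicate 4, which has no partner. Signal over background was not judged, since the values used here hold no detection calls.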

Other observations

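The ERSE was held by the windows of 35 genes in the RefSeq table, of which 20 were measured. Of these, 14 had a higher transgenic mean, with a median difference of 0.13, and 7 had groups that did not overlap, all higher, where 53.6% of all probe sets had a higher mean and 3.38% did not overlap and were higher: Derl3 (1.17), Pdia6 (1.03), Acacb (1.00), Creld2 (0.84), Dnajc3 (0.75), Hspa5 (0.65) and Syvn1 (0.58). Alg12 came next at 0.27. Acacb, an acetyl-CoA carboxylase, is a lipid enzyme and the others act in the ER. Hsp90b1 (0.23), Olfr59 (0.13), Calr (0.12), Canx (0.10), Ero1b (0.08) and Ptgdr2 (0.07), also with the element, had smaller differences. The transgenic mean was lower for Pan2 (-0.01), Acnat2 (-0.03), Calr4 (-0.10), Zfp57 (-0.15), Adcy3 (-0.15) and Tdrd9 (-0.16). These genes were named after their values were seen, no test was made of the group, and the match is one of letters.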
